A study of Mus musculus with 16 samples.

Results

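The genes described here are 10 genes of the cellular answer to oxidants: Nfe2l2, which encodes the transcription factor Nrf2, and Hmox1, Nqo1, Gclc, Gclm, Slc7a11, Txnrd1, Srxn1, Prdx1 and Sod2. They were chosen by gene symbol, and their probe sets were followed over all 6 groups of arrays. The symbols matched 21 probe sets that name 1 gene and 5 that name Prdx1 together with Gm21399, of 45101 on the array. A level could be given for 9 of the 10 genes, of 18193 genes measured in all. Prdx1 had no probe set of its own.

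The cells were dendritic cells grown from bone marrow of C57BL/6 mice with GM-CSF at 15 ng/ml and harvested on day 8. They then received Lactobacillus acidophilus NCFM, a probiotic bacterium, at 10 µg/ml for 4, 10 or 18 h in medium with GM-CSF at 10 ng/ml, or were left without it for the same times. Each NCFM group and the 4 h control had 3 arrays, and the controls at 10 h and 18 h had 2 each. The study asked which genes respond to the bacterium over time. Every group, controls included, carried GM-CSF, so the values compare bacteria with none in cells already under that growth factor. The labels give neither the age nor the sex of the mice, and they do not say that replicates came from separate cultures or animals, so the p-values cover no more than the scatter of these arrays, which among the arrays numbered 2 and 3 may be technical.

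Nrf2 is held low in resting cells by Keap1, which hands it to the proteasome. Oxidants and electrophiles modify Keap1, and Nrf2 then gathers in the nucleus, pairs with small Maf proteins and binds antioxidant response elements beside genes for glutathione synthesis, the thioredoxin system, quinone reduction and heme breakdown. In dendritic cells and macrophages several of these genes also answer to microbial products through other factors, and Sod2 is a textbook NF-kB target.

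On the arrays the deposited intensities had a median of 162 to 167 and a highest value of 27277 to 31573. Of 15 dendritic cell markers 13 lay above the array's median on all 16 arrays, as did 10 of 11 macrophage markers. The arrays numbered 1 stood apart in every group: on them Xist, the transcript of the inactive X, differed from the other arrays by -4.84 to -3.28 (log2) and Eif2s3y, a gene of the Y chromosome, by 3.70 to 4.22. Values within each array number are therefore given below beside the pooled ones.

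RefSeq promoter sequences (build GRCm38.p6, from 250 bases before to 50 after a transcript start) were held for 8 of the 10 genes, in 10 windows. They are shown because the element that Nrf2 binds is known, and the stretches let a reader see where its letters occur beside these genes, whether or not they rose. The letters TGACNNNGC, on either strand, stood in 5 of the 10 windows and in 12.4% of 32851 mouse windows. The form TGAGNNNGC stood in 3 of the 10 and in 17.6% of all. Either form stood in 6 of the 10 windows, against 27.8% of all. The AP-1 letters TGACTCA, which can overlap the second form, stood in the windows of Srxn1 and Prdx1 and in 5.2% of all. Capitals mark the match, read 5′ to 3′ along the gene's strand, for Txnrd1 (chr10:82859094-82859142, plus strand), Gclm (chr3:122245403-122245451, plus), Slc7a11 (chr3:50443682-50443730, minus), Nfe2l2 (chr2:75704875-75704913, minus) and Srxn1 (chr2:152105346-152105394, chr2:152105459-152105507 and chr2:152105532-152105573, plus). The 3 matches of Srxn1 are named by the first base of the match counted from the start.
Txnrd1: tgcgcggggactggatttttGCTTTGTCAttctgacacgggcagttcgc
Gclm: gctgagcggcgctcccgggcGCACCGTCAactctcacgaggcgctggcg
Slc7a11: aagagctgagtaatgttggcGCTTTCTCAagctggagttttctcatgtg
Nfe2l2: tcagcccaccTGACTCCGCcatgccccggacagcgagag
Srxn1 at -158: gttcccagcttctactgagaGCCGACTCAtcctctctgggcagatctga
Srxn1 at -45: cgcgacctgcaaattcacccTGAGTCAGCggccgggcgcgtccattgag
Srxn1 at 28: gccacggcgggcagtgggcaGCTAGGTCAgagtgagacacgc
The stretch of Srxn1 at -45 also holds the AP-1 letters on the opposite strand, within the same bases. A match is a description of letters and no evidence of binding. The windows of Nqo1 and Sod2 held neither form, which says only that these letters are not in those 300 bases.

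Of the 9 measured genes, each that passed the pooled test was higher with NCFM. At 4 h 2 of the 9 measured genes rose, Slc7a11 and Txnrd1. At 10 h 4 rose, Hmox1, Slc7a11, Txnrd1 and Sod2, and at 18 h 6 rose, the same 4 with Gclm and Srxn1. None fell in the pooled fit by limma's moderated test, called at an adjusted p under 0.05 over all 18193 genes. For comparison, 18.3% of all genes were called at 4 h (5.27% higher, 13.1% lower), 24.7% at 10 h (8.21% higher, 16.5% lower) and 23.7% at 18 h (7.4% higher, 16.3% lower). The median log2 change of the 9 genes was 0.83, 0.87 and 1.06 at the 3 times, and that of all genes was -0.01, 0.01 and 0.00. NCFM and control arrays did not overlap for 4, 6 and 8 of the 9 genes, against 36.5%, 52.1% and 47.2% of all genes. With array number as a block the counts became 6 at 4 h and 5 at 10 h, all higher, and 8 at 18 h, 7 higher and 1 lower. That fit called 26.8% of all genes at 4 h (7.55% higher, 19.3% lower), 31.1% at 10 h (9.95% higher, 21.2% lower) and 30.5% at 18 h (9.2% higher, 21.3% lower). Without NCFM 4 h array 1 the 4 h count was 5. With any single array left out, at most 3653 of all 18193 genes were called at 4 h. Leaving out 1 of the 2 control arrays at 10 h or at 18 h leaves a lone array in that group. Without control 10 h array 1, Hmox1 and Sod2 lost their 10 h calls. Without control 18 h array 1, Txnrd1, Srxn1 and Sod2 lost their 18 h calls, as given under each gene.

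**Figure D1:**
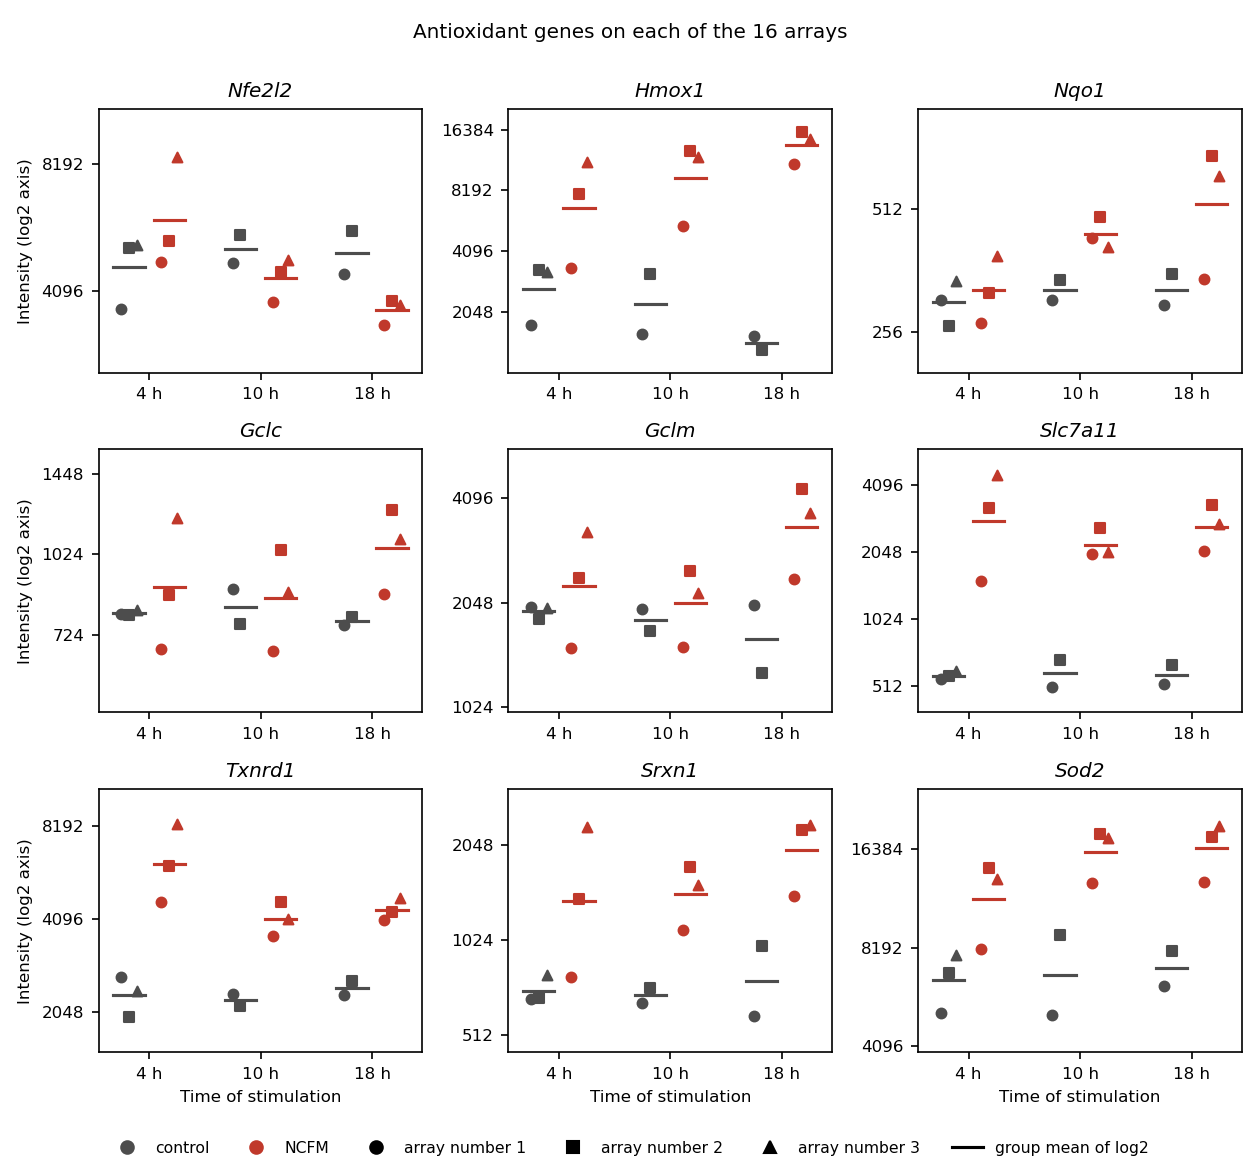
Deposited intensity (log2 axis, a scale of its own in each panel) of the 9 measured genes on each array against time, with grey for control, red for NCFM, the marker's shape for the array number and a bar for the mean of the log2 values. The control arrays of Slc7a11 lie between 508 and 674 and its NCFM arrays between 1513 and 4556, while for Nfe2l2 NCFM lies among or above control at 4 h and below it at 18 h.

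Nfe2l2 itself, the gene for Nrf2, did not pass the test at any time in the pooled fit. Its intensity with NCFM was 4779, 5382 and 8480 at 4 h on arrays 1, 2 and 3, 3841, 4529 and 4844 at 10 h, and 3399, 3860 and 3780 at 18 h. In control cells it was 3701, 5177 and 5253 at 4 h, 4748 and 5540 at 10 h, and 4475 and 5671 at 18 h. The groups overlapped at 4 h and 10 h, and at 18 h every NCFM array lay below both controls. The log2 change was 0.37 ± 0.20 (SE; limma adjusted p = 0.23) at 4 h, -0.23 ± 0.22 (adjusted p = 0.49) at 10 h and -0.46 ± 0.22 (adjusted p = 0.17) at 18 h. With array number as a block, Nfe2l2 rose at 4 h (0.37, limma adjusted p = 0.041) and fell at 18 h (-0.56, adjusted p = 0.0097). The 18 h change then also differed from the 4 h change (-0.93, adjusted p = 0.0099), where 9.15% of all genes were called. Within one array number the difference was 0.06 to 0.69 at 4 h and -0.56 to -0.40 at 18 h. The dimmer second probe set of Nfe2l2 (152 to 312 over the arrays) gave 0.29, -0.24 and -0.12, none of them called.

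Hmox1, which encodes heme oxygenase 1, the inducible enzyme that opens heme to biliverdin, iron and carbon monoxide, changed the most among the 9 genes by 18 h. With NCFM its intensity was 3387, 7894 and 11374 at 4 h, 5448, 12797 and 12023 at 10 h, and 11008, 15853 and 14633 at 18 h. Without NCFM it was 1777, 3296 and 3235 at 4 h, 1601 and 3165 at 10 h, and 1559 and 1338 at 18 h. No NCFM array overlapped a control of its time, but at 4 h and 10 h array 1 lay far below its 2 partners. At 18 h Hmox1 rose 9.46-fold (log2 3.24 ± 0.51, 95% confidence interval 2.13 to 4.35, limma adjusted p = 0.00075) and stood 40th from the top of all 18193 changes. The rise at 10 h was 4.19-fold (2.07 ± 0.51, adjusted p = 0.011), and it was no longer called without control 10 h array 1 (1.57, adjusted p = 0.14). At 4 h the change was 2.52-fold and missed the threshold (1.33 ± 0.46, adjusted p = 0.062). With the block it was called (adjusted p = 0.0037), and also without NCFM 4 h array 1 (1.83, adjusted p = 0.012) and without NCFM 10 h array 1 (adjusted p = 0.043).

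The change of Hmox1 at 18 h was larger than at 4 h by 1.91 ± 0.68 on the log2 scale (95% confidence interval 0.42 to 3.40), which did not pass the test (limma adjusted p = 0.18). With the block it did (1.72, adjusted p = 0.023). In control cells Hmox1 stood lower at 18 h than at 4 h by 0.88 ± 0.51, with groups that did not overlap, as for 15.1% of all genes, and no call (limma adjusted p = 1.00). The level with NCFM and the level without it thus both entered the larger difference at 18 h.

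Nqo1, which encodes the quinone reductase that gave the antioxidant response element one of its first target genes, was not called at any time in the pooled fit. Its NCFM arrays read 269, 319 and 394 at 4 h, 436, 491 and 413 at 10 h, and 345, 693 and 617 at 18 h. The controls read 307, 264 and 342 at 4 h, 306 and 343 at 10 h, and 297 and 354 at 18 h. NCFM lay wholly above control at 10 h, and at 18 h array 1 fell between both controls. The change of 0.70 ± 0.25 at 18 h missed the threshold (limma adjusted p = 0.060). It was called with the block (0.63, adjusted p = 0.045) and without NCFM 18 h array 1 (1.01, adjusted p = 0.0018). At 4 h and 10 h the changes were 0.10 ± 0.22 and 0.46 ± 0.25.

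In the glutathione branch the cystine importer rose at all 3 times, and of Gclc and Gclm only Gclm was called, at 18 h. Slc7a11 encodes the light chain of the cystine-glutamate exchanger, which brings in the cystine from which cells take cysteine for glutathione. With NCFM its intensity was 1513, 3243 and 4556 at 4 h, 2012, 2630 and 2048 at 10 h, and 2079, 3316 and 2725 at 18 h. In control cells it was 551, 570 and 597 at 4 h, 508 and 674 at 10 h, and 522 and 636 at 18 h. The lowest NCFM array thus stood above the highest control array of any time. Slc7a11 rose 4.92-fold at 4 h (log2 2.30 ± 0.32, 95% confidence interval 1.61 to 2.99, limma adjusted p = 0.00039), 3.78-fold at 10 h (1.92 ± 0.35, adjusted p = 0.0020) and 4.61-fold at 18 h (2.21 ± 0.35, adjusted p = 0.00084). These calls held without any single array. A second probe set, 1443536_at, gave 1.67 at 4 h and 1.36 at 10 h, both called, and 1.11 at 18 h (limma adjusted p = 0.10).

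Gclc and Gclm encode the catalytic and the modifier subunit of glutamate-cysteine ligase, the rate-limiting enzyme of glutathione synthesis. Gclm read 1515, 2404 and 3276 with NCFM at 4 h, 1531, 2526 and 2186 at 10 h, and 2389, 4346 and 3695 at 18 h. Its controls read 1984, 1841 and 1980 at 4 h, 1968 and 1701 at 10 h, and 2021 and 1288 at 18 h. Array 1 with NCFM lay below every control of its time at 4 h and 10 h, and arrays 2 and 3 lay above them. Gclm rose 2.09-fold at 18 h (log2 1.06 ± 0.33, limma adjusted p = 0.034), after 0.24 ± 0.29 at 4 h and 0.15 ± 0.33 at 10 h, neither called. The call of Gclm was lost without NCFM 18 h array 2 (0.88, adjusted p = 0.12), without NCFM 18 h array 3 (1.00, adjusted p = 0.088), without control 18 h array 2 (0.74, adjusted p = 0.27) and with only the 18 h groups fitted (adjusted p = 0.11). The mean of its probe sets gave 0.70 (adjusted p = 0.18), and the second one, 1439050_at, gave 0.34 (adjusted p = 0.62).

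Gclc was not called at any time. It ran from 676 to 1237 with NCFM and from 758 to 882 without it. At 18 h the NCFM arrays read 863, 1237 and 1095 against 758 and 782, so that the groups did not overlap, and the change was 0.45 ± 0.22 (limma adjusted p = 0.17). Its second probe set gave 0.62 (adjusted p = 0.12). The changes of Gclc at 4 h and 10 h were 0.16 ± 0.20 and 0.05 ± 0.22.

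**Figure D2:**
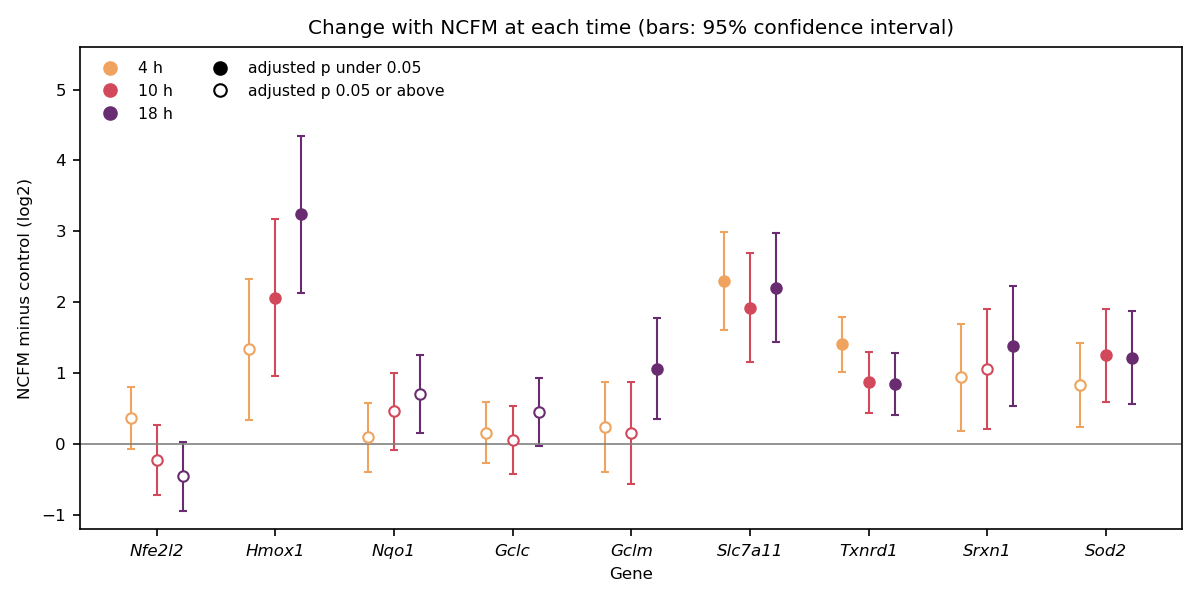
Log2 change of each gene, NCFM minus control, at 4, 10 and 18 h, with 95% confidence intervals from the fit over 16 arrays and filled points for an adjusted p under 0.05. Slc7a11 lies near 2 at every time, Hmox1 goes from 1.33 to 3.24, Txnrd1 is highest at 4 h with 1.41, and the points of Nfe2l2 go from 0.37 to -0.46.

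In the thioredoxin branch Txnrd1 was highest at 4 h. Txnrd1 encodes the cytosolic thioredoxin reductase, the selenoenzyme that passes electrons from NADPH to thioredoxin. With NCFM it read 4651, 6057 and 8288 at 4 h, 3618, 4665 and 4107 at 10 h, and 4083, 4319 and 4801 at 18 h. Control arrays read 2653, 1977 and 2393 at 4 h, 2346 and 2153 at 10 h, and 2326 and 2575 at 18 h. Every NCFM array stood above every control array. Txnrd1 rose 2.65-fold at 4 h (log2 1.41 ± 0.18, limma adjusted p = 0.00022), 1.83-fold at 10 h (0.87 ± 0.20, adjusted p = 0.0073) and 1.79-fold at 18 h (0.84 ± 0.20, adjusted p = 0.0091). The 18 h change was smaller than the 4 h change by 0.56 ± 0.27, which was not called (95% confidence interval of the difference -1.15 to 0.02, adjusted p = 0.34).

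The 2 dimmer probe sets of Txnrd1 gave 1.38 and 1.01 at 4 h and 1.35 and 0.90 at 18 h, all 4 called, and 0.57 and 0.23 at 10 h, not called. With the mean of the probe sets, Txnrd1 at 10 h was 0.56 and lost its call (limma adjusted p = 0.070). At 18 h the call was lost without control 18 h array 1 (0.77, adjusted p = 0.058).

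Srxn1 encodes sulfiredoxin, which repairs peroxiredoxins that peroxide has overoxidised. With NCFM it read 780, 1377 and 2340 at 4 h, 1101, 1739 and 1524 at 10 h, and 1413, 2285 and 2367 at 18 h. Without NCFM it read 666, 669 and 796 at 4 h, 648 and 722 at 10 h, and 587 and 980 at 18 h. At 4 h array 1 with NCFM lay inside the control range, and at 10 h and 18 h the groups did not overlap. Srxn1 rose 2.60-fold at 18 h (log2 1.38 ± 0.39, limma adjusted p = 0.023). The changes of 0.94 ± 0.35 at 4 h (adjusted p = 0.083) and 1.06 ± 0.39 at 10 h (adjusted p = 0.066) missed the threshold. Both were called with the block (0.94, adjusted p = 0.0083, and 0.90, adjusted p = 0.018).

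Single arrays decided several calls of Srxn1. At 4 h it was called without NCFM 4 h array 1 (1.34, limma adjusted p = 0.012), and at 10 h without NCFM 4 h array 1 or 3 (adjusted p = 0.025 and 0.026). At 18 h it was no longer called without NCFM 18 h array 2 (1.27, adjusted p = 0.073), NCFM 18 h array 3 (1.24, adjusted p = 0.069) or control 18 h array 1 (1.01, adjusted p = 0.16), or with only the 18 h groups fitted (adjusted p = 0.061). Of the other 3 probe sets of Srxn1, 1451680_at was called at 4 h (1.05) and at 18 h (1.61), 1419942_at was called at 10 h (0.48), and 1425351_at gave 0.94, 0.97 and 0.92 without a call.

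Prdx1 encodes a peroxiredoxin that reduces peroxide with electrons from thioredoxin. The 5 probe sets shared by Prdx1 and Gm21399 cannot be assigned to either gene, and they were not tested. The probe set 1416000_a_at ran from 9959 to 11821 in control cells at 4 h and from 12401 to 16969 with NCFM. At 18 h it ran from 11759 to 15766 in control cells and from 21130 to 23116 with NCFM. NCFM arrays lay above all controls of their time on 4 of the 5 shared probe sets at 4 h and on all 5 at 10 h and 18 h. Of all genes 36.5%, 52.1% and 47.2% did not overlap at 4, 10 and 18 h, in either direction. The 5 probe sets name the same genes and are not separate observations.

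Sod2 encodes the mitochondrial manganese superoxide dismutase, which turns superoxide into peroxide. Its intensity with NCFM was 8137, 14385 and 13304 at 4 h, 12924, 18240 and 17703 at 10 h, and 13022, 17945 and 19288 at 18 h. Controls read 5178, 6885 and 7785 at 4 h, 5109 and 8960 at 10 h, and 6262 and 8034 at 18 h. NCFM lay wholly above control at each time. Sod2 rose 2.38-fold at 10 h (log2 1.25 ± 0.30, limma adjusted p = 0.0098) and 2.33-fold at 18 h (1.22 ± 0.30, adjusted p = 0.012). The 4 h change of 1.78-fold was just short of the threshold (0.83 ± 0.27, adjusted p = 0.052), and with the block it passed (adjusted p = 0.00011).

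Sod2 lost its 10 h call without control 10 h array 1 (0.85, limma adjusted p = 0.15) and its 18 h call without control 18 h array 1 (1.04, adjusted p = 0.083). At 4 h it was called without NCFM 4 h array 1 (1.08, adjusted p = 0.018), without NCFM 18 h array 1 (adjusted p = 0.048) or without either control 10 h array (adjusted p = 0.038 each). The other bright probe set of Sod2, 1448610_a_at, gave 0.80, 1.24 and 1.25, called at 10 h and 18 h. The dimmer 1417194_at gave 0.89, called, then 0.81 and 0.71, and 1454976_at gave 1.03, 1.26 and 0.85 without a call.

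No change differed between times for any of the 9 genes in the pooled fit, where 0.506% of all genes differed between 4 h and 10 h, 0.0055% between 10 h and 18 h and 3.4% between 4 h and 18 h. Between 4 h and 18 h the differences ran from -0.83 ± 0.30 for Nfe2l2 (limma adjusted p = 0.18) to 1.91 for Hmox1. A missed threshold does not show that the changes were alike, since the confidence intervals of Nfe2l2 (-1.48 to -0.17) and Hmox1 left out 0. In control cells none of the 9 genes was called over time, and 0% of all 18193 genes was either (553, 653 and 559 genes had an unadjusted limma p under 0.05 for 10 h against 4 h, 18 h against 10 h and 18 h against 4 h).

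The level of the 9 genes differed with the array number. Among the NCFM arrays, number 1 was the lowest for 9 of 9 genes at 4 h, 8 of 9 at 10 h and 9 of 9 at 18 h. Among the controls it was the lowest for 5, 6 and 7 of 9. At 4 h array 3 with NCFM was the highest for 8 of 9. The like shares of all genes were not counted, and same-numbered arrays deviated together over all genes (median correlation 0.42). These counts are thus not shown to be particular to the 9 genes. Over the 6 groups the median difference of array 1 from the rest was -0.93 for Hmox1, -0.64 for Srxn1, -0.51 for Sod2, -0.35 for Slc7a11 and -0.31 for Nfe2l2.

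Compared only within one array number, Hmox1 was higher with NCFM in 7 of 7 pairs (0.93 to 3.57), as were Slc7a11 (1.46 to 2.93), Txnrd1 (0.62 to 1.79), Sod2 (0.65 to 1.34) and Srxn1 (0.23 to 1.56). Gclm went both ways: within number 1 it was -0.39, -0.36 and 0.24 at 4, 10 and 18 h, and within number 2 it was 0.38, 0.57 and 1.75. Gclc did likewise, with -0.22, -0.38 and 0.19 within number 1 and 0.12, 0.46 and 0.66 within number 2. Nqo1 was at -0.19 within number 1 at 4 h and above 0 in its other pairs. Nfe2l2 was above 0 in every pair at 4 h and below 0 in every pair at 10 h and 18 h. The share of all genes higher in 7 of 7 pairs was not counted. The difference was not always smaller within number 1: at 10 h Sod2 was at 1.34 within number 1 and 1.03 within number 2. What the number stands for is not in the labels. By Xist and Eif2s3y the cells on the arrays numbered 1 differed from the rest in sex make-up, which the pooled fit does not take up. The part of the array number in the size of the changes was not tested.

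**Figure D3:**
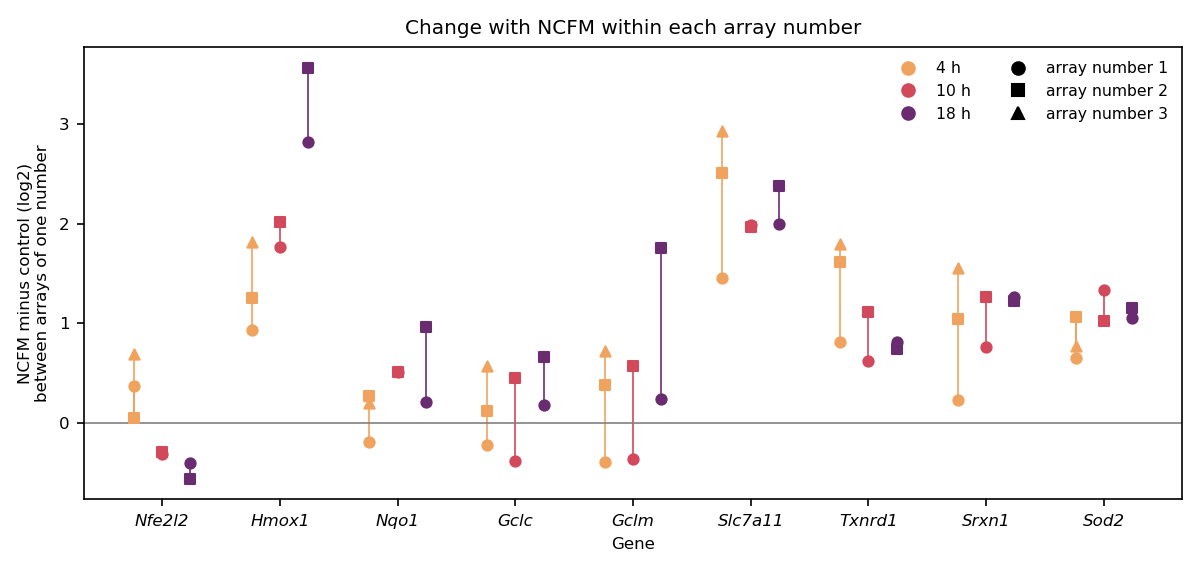
Log2 difference between the NCFM array and the control array of one number, for each gene and time, with the marker's shape for the array number and lines joining the pairs of one time. All 7 pairs lie above 0 for Hmox1, Slc7a11, Txnrd1, Srxn1 and Sod2, and the pairs of Nfe2l2, Nqo1, Gclc and Gclm lie on both sides of 0.

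The genes whose 6 group means ran nearest to those of the 4 widest moving genes were named by a distance, the root mean square of the difference between centred group means on the log2 scale. Nearest to Hmox1 (range of group means 3.24) were Il1f9 at 0.28, Slc7a2 at 0.31 and Cd86 at 0.31. Nearest to Slc7a11 (range 2.30) were Mx2 and Cflar at 0.18 and Cd274 at 0.19. Srxn1 (range 1.53) was closest to Ifrd1 at 0.07, Oas1b at 0.09 and Sqstm1 at 0.10, and Txnrd1 (range 1.45) to Fam102b at 0.11 and Csrnp1 and Ppp1r15a at 0.12. The distances describe 6 group means and carry no test.

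Other genes of antioxidant metabolism moved both ways, with more falls than rises in the pooled fit, as over all genes. Of 107 genes in 8 lists 96 were measured, none of them among the 10. At 4 h 6 rose and 16 fell, at 10 h 9 rose and 25 fell, and at 18 h 15 rose and 22 fell by limma at an adjusted p under 0.05. The shares that rose were 6.25%, 9.38% and 15.6%, against 5.27%, 8.21% and 7.4% of all genes, and the shares that fell were 16.7%, 26% and 22.9%, against 13.1%, 16.5% and 16.3%. Their median log2 change was -0.19, -0.11 and -0.04. Quantile normalization gave 8 and 9, 12 and 19, and 20 and 20. With array number as a block the counts were 7 and 33, 11 and 34, and 21 and 29. The split at 4 h turned on the scaling: centred on spike-in controls, which moved the median of all genes by 0.19, 12 rose and 3 fell, and of all genes 3312 rose and 738 fell against 959 and 2376. At 10 h that centring moved the median by -0.25 and gave 5 and 41, and of all genes 647 and 6185 against 1493 and 2995.

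Among 15 regulators of Nrf2, 4 rose at 4 h, 3 at 10 h and 3 at 18 h, and 1 fell at 18 h, with a median change of -0.06, 0.04 and 0.05. With the block the falls were 2, 2 and 3. Keap1, the adaptor that marks Nrf2 for destruction, rose at all times (0.72 ± 0.07, 0.91 ± 0.08 and 0.48 ± 0.08, limma adjusted p at most 0.0011). Sqstm1, the autophagy receptor p62 that can bind Keap1, rose by 1.11 ± 0.25 at 4 h, 1.13 ± 0.28 at 10 h and 1.29 ± 0.28 at 18 h (adjusted p = 0.0085, 0.010 and 0.0051). It lost its 10 h call without control 10 h array 1 (0.94, adjusted p = 0.12) and its 4 h call when only the 4 h groups were fitted (adjusted p = 0.058). The small Maf partners Maff (1.28 ± 0.25, adjusted p = 0.0036) and Mafk (1.20 ± 0.14, adjusted p = 0.00012) rose at 4 h.

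Bach1, a repressor that competes for the same elements, was the regulator that fell at 18 h (-1.10 ± 0.35, limma adjusted p = 0.037). The call of Bach1 was lost without NCFM 18 h array 1 (-0.97, adjusted p = 0.097), NCFM 18 h array 2 (-1.11, adjusted p = 0.082), control 18 h array 2 (-0.55, adjusted p = 0.38), or NCFM 10 h array 2 or control 4 h array 2 (adjusted p = 0.051 each). Quantile normalization (adjusted p = 0.059) and a fit of the 18 h groups alone (adjusted p = 0.13) also ended it, and its second probe set, 1449311_at, gave -0.18 (adjusted p = 0.68).

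The 26 genes of glutathione synthesis, reduction and transfer moved both ways, with 1 higher and 2 lower at 4 h, 3 and 4 at 10 h, and 7 and 2 at 18 h (medians -0.12, -0.04 and -0.02). With the block these were 2 and 9, 5 and 8, and 8 and 5. In the pooled fit the 7 higher at 18 h were Gss, Gsta3, Gstm1, Gstt1, Glrx, Slc3a2 and Abcc1. The 2 lower at that time were Gpx1 and Mgst3. Slc3a2, the heavy chain that partners Slc7a11 in the exchanger, rose by 0.84 ± 0.22, 1.18 ± 0.25 and 0.99 ± 0.25 (limma adjusted p = 0.021, 0.0047 and 0.013). These calls rested on single arrays: at 4 h it was lost without NCFM array 2 (0.78) or 3 (0.65) or control array 2 or 3 (0.84 each), at 10 h without control array 1 (0.94, adjusted p = 0.075) and at 18 h without control array 1 (0.89, adjusted p = 0.076). Glrx, a glutaredoxin, rose at 18 h (1.88 ± 0.30, adjusted p = 0.00083). Mgst3, a microsomal glutathione transferase, fell at 18 h (-1.54 ± 0.30, adjusted p = 0.0029). Gsr, the glutathione reductase, was at 0.25 ± 0.16, -0.10 ± 0.18 and -0.13 ± 0.18, not called.

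The list of other thioredoxin and peroxiredoxin genes also holds sestrins and methionine sulfoxide reductases. Of this list 14 genes were measured, and Prdx5 and Prdx6 were not. Wherever the 14 were called they went the opposite way to Txnrd1: 6 fell at 4 h, 8 at 10 h and 6 at 18 h. None rose in the pooled fit (medians -0.35, -0.48 and -0.37). The falls at 4 h were Txn2, Prdx2, Sesn1, Sesn2, Msrb1 and Msrb2. At 10 h Txn2, Txnip, Txnrd2, Prdx3, Sesn1, Sesn2, Msra and Msrb2 fell, and at 18 h Txn2, Txnrd2, Prdx3, Sesn1, Msra and Msrb2. The mitochondrial members stood among them. At 18 h Txn2, the mitochondrial thioredoxin, fell by 0.95 ± 0.12 (limma adjusted p = 0.00017), its reductase Txnrd2 by 0.68 ± 0.09 (adjusted p = 0.00025) and the mitochondrial Prdx3 by 0.95 ± 0.13 (adjusted p = 0.00032). Sesn1, a sestrin, fell by 1.67 ± 0.22, 1.40 ± 0.24 and 1.58 ± 0.24. Dimmer probe sets of Txnrd2 and Sesn1 were not called. The cytosolic Txn1 was at 0.80 ± 0.29 at 18 h (adjusted p = 0.071), and it rose with the block (0.90, adjusted p = 0.033). The 4 h count was 1 fall after spike-in centring and 10 with the block, and at 18 h the block gave 2 rises and 7 falls.

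Of 8 measured genes listed under supply of NADPH, the electron source for both branches, 4 fell at 4 h, 6 at 10 h and 6 at 18 h (medians -0.42, -0.94 and -0.99). At 10 h and at 18 h these were Pgls, Taldo1, Tkt, Idh1, Idh2 and Nnt. Pgd was not called at any time, and G6pdx of the same list was not measured. At 18 h Idh1, the cytosolic isocitrate dehydrogenase, fell by 2.08 ± 0.36 (limma adjusted p = 0.0014), the mitochondrial Idh2 by 1.31 ± 0.20 (adjusted p = 0.00067) and Pgls of the pentose phosphate pathway by 1.32 ± 0.18 (adjusted p = 0.00027). Nnt, the transhydrogenase of the mitochondrial inner membrane, fell by 0.68 ± 0.12 at 4 h, 1.15 ± 0.13 at 10 h and 1.60 ± 0.13 at 18 h. Me1, the cytosolic malic enzyme, rose at 18 h by 0.63 ± 0.10 (adjusted p = 0.00078). A dim second probe set of Idh2 and one of Nnt were near 0. After spike-in centring the 4 h count was 1 higher and 1 lower.

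**Figure D4:**
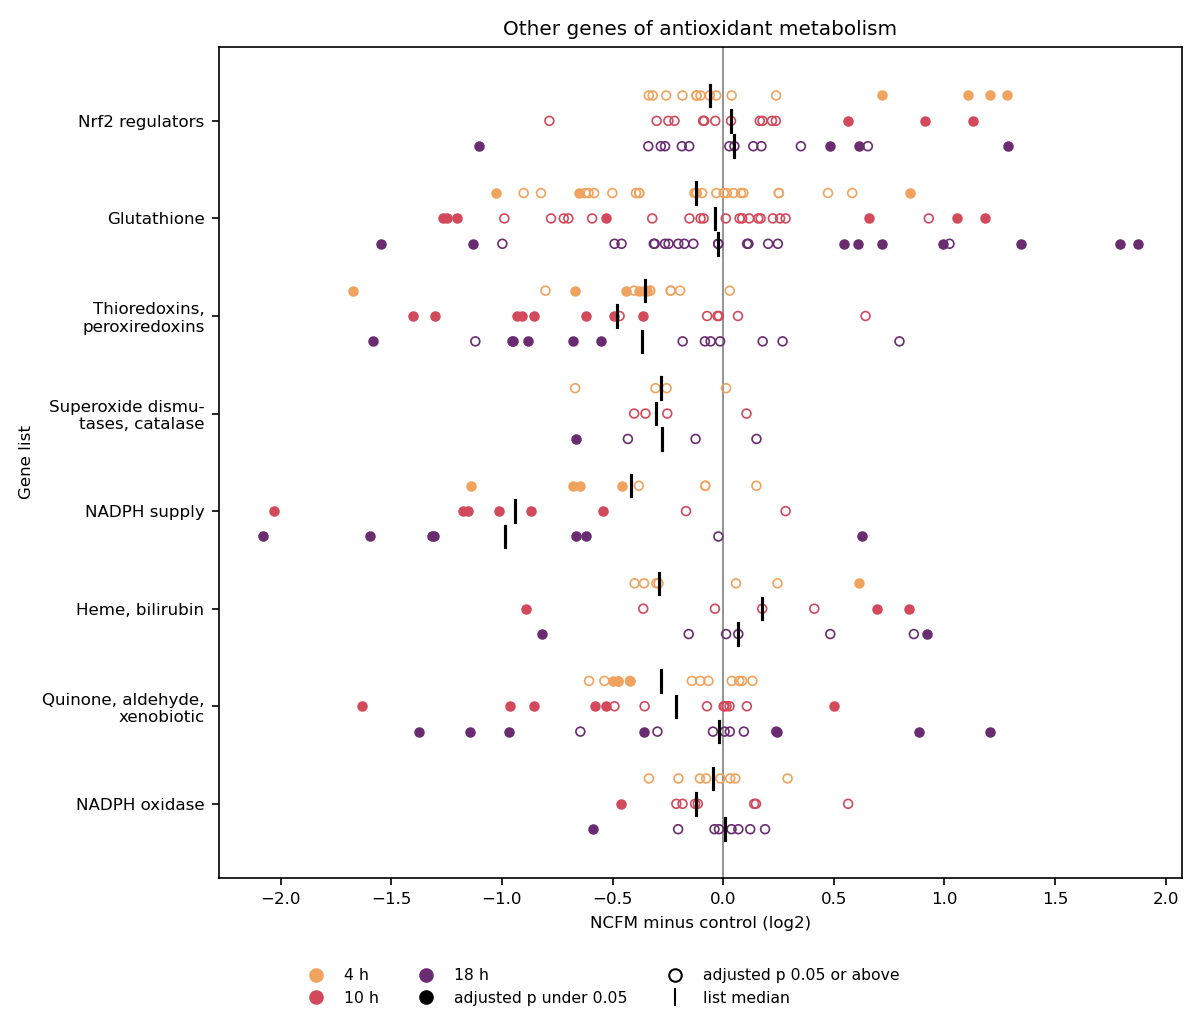
Log2 change, NCFM minus control, of the 96 other genes in 8 lists at 4, 10 and 18 h, each point a gene, filled where the adjusted p was under 0.05, with a bar at the list's median. The medians of the NADPH supply list lie at -0.42, -0.94 and -0.99, and no filled point of the thioredoxin and peroxiredoxin list lies above 0.

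Around Hmox1, 7 genes of heme and bilirubin handling were measured, of which 1 rose at 4 h, 2 rose and 1 fell at 10 h, and 1 rose and 1 fell at 18 h (medians -0.29, 0.18 and 0.07). Alas1, the first enzyme of heme synthesis, rose at 18 h (0.92 ± 0.18, limma adjusted p = 0.0035), and Blvra, the reductase that makes bilirubin, fell at 10 h (-0.89 ± 0.15, adjusted p = 0.0011) and at 18 h (-0.82 ± 0.15, adjusted p = 0.0019). The 18 h call of Blvra was lost when only the 18 h groups were fitted (adjusted p = 0.057). Beside Nqo1, the 14 quinone, aldehyde and xenobiotic enzymes gave 0 higher and 4 lower at 4 h, 1 and 5 at 10 h, and 3 and 4 at 18 h (medians -0.28, -0.21 and -0.02). At 18 h the 3 higher were Akr1a1, Akr1b8 and Ptgr1, and the 4 lower were Nqo2, Ephx1, Akr1b10 and Aldh2. Ephx1, the microsomal epoxide hydrolase, fell by 1.63 ± 0.21 at 10 h and by 1.37 ± 0.21 at 18 h. At 4 h spike-in centring gave 3 higher and 0 lower, and the block gave 0 and 7.

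Beside Sod2, the superoxide dismutases Sod1 and Sod3, the copper chaperone Ccs and catalase had 0 calls at 4 h and 10 h and 1 fall at 18 h, that of Ccs. Sod1 was at -0.67 ± 0.27, -0.35 ± 0.30 and -0.43 ± 0.30, and Cat at -0.26 ± 0.16, -0.25 ± 0.18 and 0.15 ± 0.18, none called by limma. Of 8 genes of the phagocyte NADPH oxidase and its relatives, which make superoxide, 0 were called at 4 h, and 1, Rac1, fell at 10 h and at 18 h. Cybb, the oxidase's heme-bearing core, was at 0.29 ± 0.34, 0.56 ± 0.38 and 0.19 ± 0.38.

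Other cell types in such cultures could carry these transcripts, and in bulk samples fewer cells of a type and less RNA per cell cannot be told apart. The summed intensity of 8 neutrophil markers was 7888 to 35872 with NCFM and 28557 to 41080 without at 4 h, 13065 to 34170 and 39219 to 47597 at 10 h, and 5705 to 17127 and 22930 to 25660 at 18 h. The sum of 11 macrophage markers overlapped between the groups at each time (43523 to 63900 with NCFM and 55645 to 81442 without at 18 h), but its members went opposite ways. Mrc1 was lower at 18 h (-3.58) and Fcgr1 higher (1.40), both called by limma. The sum of 15 dendritic cell markers overlapped at 18 h (60756 to 80104 with NCFM and 77604 to 78243 without), and 5 of the 15, Itgax, Csf2ra, Kit, Ciita and Cd74, fell by 0.81, 0.90, 1.04, 0.54 and 0.23. The fibroblast markers Dcn (142 to 275 over all arrays) and Lum (91 to 153) were dim and rose at 18 h by 0.62 and 0.50. The other fibroblast markers, Col1a1, Col1a2, Col3a1 and Pdgfra, were at -0.05, 0.11, 0.14 and 0.04 then, none called. The sum of 6 plasmacytoid dendritic cell markers was 10460 to 13690 with NCFM and 2945 to 3993 without at 18 h, mostly through Bst2, while the defining Siglech stayed below the median of every array (118 to 147). The sum of 5 natural killer cell markers was 1097 to 1284 and 887 to 1118 at 18 h, and Ncr1 ran from 137 to 165. The part of other cells in the changes of the 9 genes was not tested.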

How the data were processed

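The deposited table holds 1 intensity per probe set for 16 single-channel arrays. Its intensity values are whole numbers, already set to a like median by the authors before they were deposited, judging by the values; summarization, background correction and normalization are not given in the sources used here. Intensities were taken to log2. Probe sets were named from the platform annotation, and 34945 name 1 gene, 932 several, and 9160 are not listed. The probe set with the highest mean stood for its gene (18193 genes). A fit of 6 group means (limma 3.58.1, R 4.3.3, 10 residual degrees of freedom) gave changes and Benjamini-Hochberg adjusted p-values over all genes, called under 0.05. Groups came from the labels. The members and lists were chosen with earlier results of these data known. Genes named were the members, measured genes of the lists and the 3 nearest genes of the 4 widest members.

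Same-numbered arrays deviated together (36 pairs, correlation 0.19 to 0.75, median 0.42) and pairs of different numbers did so less (70 pairs, -0.75 to 0.73, median -0.32, which centring within small groups pulls below 0), so the block by array number is printed where it changes a call. Tested on simulated data with 200 genes changed by 1 on the log2 scale, the fit recovered 86.2% at 4 h, 83.0% at 10 h and 82.2% at 18 h, with 4.77%, 6.56% and 6.81% of calls false, and 70.5% to 71.7% of changes that differed between times. These rates are not those of a gene with a wide spread. Hmox1 at 4 h (1.33 ± 0.46) was not called, so a missed call does not mean a change under 1. Promoters came from RefSeq (GRCm38.p6), and the figures were drawn with matplotlib 3.10.9. The number of arrays limits the precision.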

Additional observations from a re-analysis of the deposited data

Results flagged for a closer look

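Mafk and Nnt, genes of the pathway lists, changed differently with NCFM at 18 h than at 4 h by the limma test of that difference, which called 3.4% of all genes. For Mafk, a small Maf partner of Nrf2, the difference was -0.85 ± 0.21 (SE; limma adjusted p = 0.045), from 1.20 at 4 h to 0.35 at 18 h. It was not called without any single array of the 4 h control (-0.91 to -0.77), of either 18 h group (-0.96 to -0.75) or of the 10 h control (-0.85), nor without NCFM 4 h array 2 or 3 (-0.78 and -0.80) or NCFM 10 h array 3 (-0.85), and the adjusted p was then at most 0.13. For Nnt the difference was -0.92 ± 0.18 (limma adjusted p = 0.017), from -0.68 to -1.60. It was lost without control 18 h array 2 (-0.79, adjusted p = 0.065), and the probe set 1416105_at gave -0.83 (adjusted p = 0.072).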

How the results depend on the processing

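Slc7a11 at all 3 times and Txnrd1 at 4 h kept their calls in every alternative on genes. Of all genes 3335, 4488 and 4320 were called at 4, 10 and 18 h. At an adjusted p under 0.01 these counts were 1713, 2585 and 2416, and the members called at 18 h went from 6 to 3. Spike-in centring gave 6832 at 10 h, and the 18 h groups alone gave 2449. The 2 members called at 4 h became 5 with spike-in centring, 4 without dim genes, 4 with an intensity trend and robust variance, 4 by any probe set and 6 with the replicate block. Of all genes 4050 were called at 4 h with spike-in centring, 3345 without dim genes and 3274 with the intensity trend. Counting genes with any called probe set gave 3935, and the replicate block gave 4880, against 3335. A fit of arrays 2 and 3 alone was chosen after seeing the data. It leaves 1 control array at 10 h and at 18 h, so no counts are given for it. Between 4 h and 10 h, spike-in centring called 2 members against 0 (Nfe2l2 and Txnrd1), where it called 52.5% of all genes. Between 4 h and 18 h the replicate block called 2 members and 9.15% of all genes. Leaving out each array in turn gave 2138 to 3653, 2134 to 4755 and 2868 to 4503 genes at the 3 times, 2 to 5, 2 to 5 and 3 to 7 members, and 0 to 1 between 4 h and 18 h. Lone samples are then assumed to vary like the other groups. Without control 4 h array 2 or 3 the 4 h count was 2138 or 2207, without control 10 h array 1 the 10 h count was 2134, and without control 18 h array 2 the 18 h count was 2868. The share of falls at 4, 10 and 18 h moved with quantile normalization (1173 higher and 1624 lower, 2169 and 2169, 2072 and 2181, against 959 and 2376, 1493 and 2995, 1347 and 2973). Dim second probe sets turned sign: Nnt by 1432608_at was at 0.00027, 0.027 and 0.049, and at 0.049 between 4 h and 18 h, and Mgst3 by 1450563_at at 18 h was at 0.028. The causes were not tested. The block changed no other call of a member than those given. Signals near the arrays' 5th percentile (65 to 67) limit dim probe sets.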
